A study of Mus musculus with 6 samples.

Results

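A set of 10 chemokine genes of the stroma, Ccl2, Ccl7, Ccl11, Ccl19, Cxcl1, Cxcl2, Cxcl12, Cxcl13, Cxcl14 and Cx3cl1, was followed through the single-cell RNA sequencing of inguinal white adipose tissue (iWAT) from young and aged mice. The genes were taken by symbol, which gave 10 symbols of 31017 distinct symbols, on 11 rows of the 31053 rows of the feature table. Ccl19 had 2 rows, and its second row held 0 UMIs (unique molecular identifiers, each standing for 1 captured RNA molecule) in every library. The cells were stromal vascular cells, the non-adipocyte fraction of digested fat, sorted as live and depleted of CD45+ immune cells. Each of the 6 libraries came from 1 combination of age and housing: male C57BL/6 mice of 9 weeks (young) or 57 weeks (aged), all first held for 3 weeks at 30 °C, then left at 30 °C (TN, thermoneutral) for 2 weeks more, moved to 6 °C for the last 3 days (3D), or held at 6 °C for 14 days (14D). The inguinal lymph node was removed before digestion. With 1 library per combination, the age comparison set 3 aged against 3 young libraries matched on temperature, and each cold comparison rested on 2 libraries per temperature. The number of mice behind a library was not given in the sources used here, so p-values measured only the spread between libraries, which may be technical. Within a class, age and cold were fitted as additive terms, and no combination had a replicate. The spread thus mixed library noise with any age change that differed by temperature.

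Chemokines are small secreted proteins that direct the movement of leukocytes through G protein-coupled receptors. CCL2 and CCL7 draw monocytes, CCL11 (eotaxin) draws eosinophils, and CXCL1 and CXCL2 draw neutrophils. CXCL12, CXCL13 and CCL19 are homeostatic ligands that place haematopoietic cells, B cells and naive T cells or dendritic cells, CXCL14 is a less understood ligand made by many stromal and epithelial cells, and CX3CL1 is anchored in the membrane until proteases shed it. In adipose tissue fibroblastic adipocyte stem and progenitor cells (ASPCs) are a known source of several of these ligands, and eosinophils and macrophages are known residents of the tissue.

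Every kept cell was assigned to a class by counting lineage markers, and fibroblasts were split by marker scores into Dpp4+ fibroblasts (20051 cells), Icam1+ preadipocytes (17718) and Cd142+ fibroblasts (5500). The other classes held 4095 endothelial cells, 806 SMCs/pericytes (smooth muscle cells and pericytes), 122 Schwann cells and 257 immune cells that had passed the CD45 depletion. Among fibroblasts, each list used for the split summed highest in its own class. The 8 Dpp4+ markers summed to 7125 to 9304 CPM (UMIs of a gene scaled to a fixed total per sum) in Dpp4+ fibroblasts and 177 to 501 CPM in Icam1+ preadipocytes. The 8 endothelial markers summed to 6388 to 7563 CPM in endothelial cells against 10.0 to 32.5 CPM in Dpp4+ fibroblasts. The Icam1+ markers were not confined to their class. They summed to 11913 to 13575 CPM in Icam1+ preadipocytes, 40879.5 to 60910.5 CPM in endothelial cells and 14673 to 32818 CPM in SMCs/pericytes. Cd142+ fibroblasts held 2645 to 4469 CPM of the Icam1+ markers and 1915 to 2920 CPM of their own. The split of fibroblasts was a cut through a continuous score: 6380 fibroblasts (12.9%) led by less than 0.25 and had no class, and 6598 (13.3%) had a lead of 0.25 to 0.5, just inside the cut. None of the 10 chemokines was in a list used for the split.

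Aged 14D and Aged TN stood apart. The Aged 14D library held 52068837 UMIs against up to 88508349 (Young TN), its kept cells had a median of 2741.5 UMIs against 6726 to 9904 elsewhere, and 14.0% of its cells fell in no lineage against 1.47% to 2.76%. Depth also differed by age. At TN, 3D and 14D the median of kept cells was 9904, 8312 and 7652 UMIs in young and 6726, 6912 and 2741.5 in aged libraries. Every aged library was thus shallower than every young one. In an unsupervised clustering without integration, 90.9% of the Icam1+ preadipocytes of Aged TN lay in 1 cluster (2) that held 17.2% to 29.6% of those of the other libraries, whose largest share lay in cluster 1. Cluster 4 held 71.8% of the Dpp4+ fibroblasts of Aged TN, cluster 6 held 45.0% of those of Aged 14D, and cluster 0 held 66.5% to 73.7% of those of the other 4 libraries. Cluster 8 held 75.5% and 78.6% of the endothelial cells of Aged 14D and Aged TN and at most 9.97% of those of the others, which lay mostly in cluster 7. Of the Cd142+ fibroblasts of Aged 14D, 43.1% lay in an unnamed cluster (3) of low UMI counts. In all, 524 barcode sequences occurred in 2 or more libraries.

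A promoter was found in the RefSeq table for 7 of the 10 (Ccl19, Cxcl1, Cxcl2, Cxcl12, Cxcl13, Cxcl14 and Cx3cl1). Ccl2 (chr11:82035571-82037453), Ccl7 (chr11:82045712-82047525) and Ccl11 (chr11:82057823-82062955) lie in a row on the plus strand of chromosome 11, with gaps of 8259 and 10298 bases (GRCm38). Cxcl1 (chr5:90891241-90893115) and Cxcl2 (chr5:90903871-90905938) lie 10756 bases apart on the plus strand of chromosome 5, where Cxcl13 (chr5:95956951-95961068, plus strand) is found farther along. Cxcl12 is at chr6:117168535-117181367 (plus strand), Cx3cl1 at chr8:94772009-94782427 (plus strand), Cxcl14 at chr13:56288643-56296551 (minus strand) and Ccl19 at chr4:42754525-42756577 (minus strand).

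The neighbours Cxcl1 and Cxcl2 are shown with the 120 bases before their start sites (RefSeq, GRCm38.p6, plus strand). They were chosen because Cxcl2 was detected more often in fibroblasts with Cxcl1 than in those without. Both are also textbook targets of NF-kB, the transcription factor of the inflammatory response. Capitals mark matches, on either strand, of the kappa B letters GGGNNNTTCC, the binding pattern of NF-kB. Cxcl1 spans chr5:90891125-90891244 and Cxcl2 spans chr5:90903779-90903898. The gene positions given above come from GENCODE, whose annotated starts differ from those of RefSeq, so both stretches run into those positions.
Cxcl1: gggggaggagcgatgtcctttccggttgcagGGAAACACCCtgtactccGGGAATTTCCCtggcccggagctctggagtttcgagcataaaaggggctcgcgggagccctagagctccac
Cxcl2: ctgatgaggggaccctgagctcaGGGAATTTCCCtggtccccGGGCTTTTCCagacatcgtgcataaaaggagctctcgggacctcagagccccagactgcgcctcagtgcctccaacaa
Both hold the same run of GGGAATTTCCC, which matches on both strands, and each has 1 further match. Within 250 bases before the start the letters occurred in these 2 of the 7 matched chemokine promoters and in 1527 of 32851 promoters (4.65%) of the table. A match of letters describes the sequence and does not show that the site is bound.

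The classes were first compared for the level of each chemokine, in CPM scaled between libraries. Values of 1 gene were compared between classes and libraries, and levels of different genes were not compared. Values are given in the order TN, 3D and 14D. Ccl2 was highest of the fibroblast classes in Dpp4+ fibroblasts in all 6 libraries, at 431, 446 and 831 CPM in young and 603, 884 and 1001 in aged libraries. Icam1+ preadipocytes, at 172 to 528 CPM, lay below Cd142+ fibroblasts, at 355 to 767 CPM, in 5 of 6 libraries, the exception being Young 3D. Ccl7 was lowest of the fibroblast classes in Dpp4+ fibroblasts in 5 of 6 libraries, the exception being Aged TN. Its level was 458 to 879 CPM there, 981 to 1760.2 CPM in Cd142+ fibroblasts without overlap, and 472 to 1395 CPM in Icam1+ preadipocytes, which overlapped both. Ccl11 was highest in Icam1+ preadipocytes in all 6 libraries, at 821, 1174 and 783 CPM in young and 923, 1351 and 1035 in aged libraries, and lowest of the fibroblasts in the Dpp4+ class, at 384, 369 and 320.4 CPM in young and 496, 572 and 540.0 in aged libraries. The Dpp4+ range did not overlap that of either other fibroblast class.

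Among the neutrophil attractants, Cxcl1 was found in fibroblasts and mural cells alike, at 1189 to 2125 CPM in Cd142+ fibroblasts, 1258 to 2389 CPM in Icam1+ preadipocytes, 857 to 2259 CPM in SMCs/pericytes and 912 to 1252 CPM in Dpp4+ fibroblasts, all above the 152 to 282 CPM of endothelial cells. The ranges of Icam1+ preadipocytes and Dpp4+ fibroblasts did not overlap, and the other ranges did. Cxcl2 was highest in immune cells, at 265 to 2854 CPM, a range above that of every other class. Among fibroblasts it was lowest in Icam1+ preadipocytes (13.1 to 36.5 CPM) in all 6 libraries, and Dpp4+ fibroblasts (39.2 to 142 CPM) exceeded Cd142+ fibroblasts (49.5 to 72.5 CPM) in 4 of 6, all but Young TN and Young 3D.

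Cxcl12 was highest in endothelial cells, at 1913, 1870.4 and 1982 CPM in young and 2125, 1819 and 1822 in aged libraries, followed by Cd142+ fibroblasts (762 to 1117 CPM), SMCs/pericytes (373 to 655 CPM), Icam1+ preadipocytes (229 to 356 CPM) and Dpp4+ fibroblasts (45.0 to 75.7 CPM), with no overlap between neighbours in this order. Cxcl14 was found in Icam1+ preadipocytes (821 to 1487 CPM) and Cd142+ fibroblasts (320.4 to 871 CPM), while Dpp4+ fibroblasts held 13.7 to 22.2 CPM, overlapping the 6.37 to 42.6 CPM of endothelial cells. Cxcl13 was higher in Cd142+ (259.8 to 590.4 CPM) and Dpp4+ fibroblasts (306 to 437 CPM) than in Icam1+ preadipocytes (50.9 to 129 CPM). Ccl19 was scarce, with 2.55 to 11.4 CPM in Cd142+ fibroblasts from 13 to 73 UMIs per library. Cx3cl1 stood out in endothelial cells, at 23.6, 23.6 and 23.6 CPM in young and 26.8, 24.4 and 21.0 in aged libraries, and had at most 7.21 CPM in any other class. The 122 Schwann cells, the glia of peripheral nerves, had 17.1 to 431 CPM of Cxcl1 and 47.7 to 137 CPM of Cxcl12, with 0 UMIs of Ccl19 and Cx3cl1 in all 6 libraries.

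**Figure D1:**
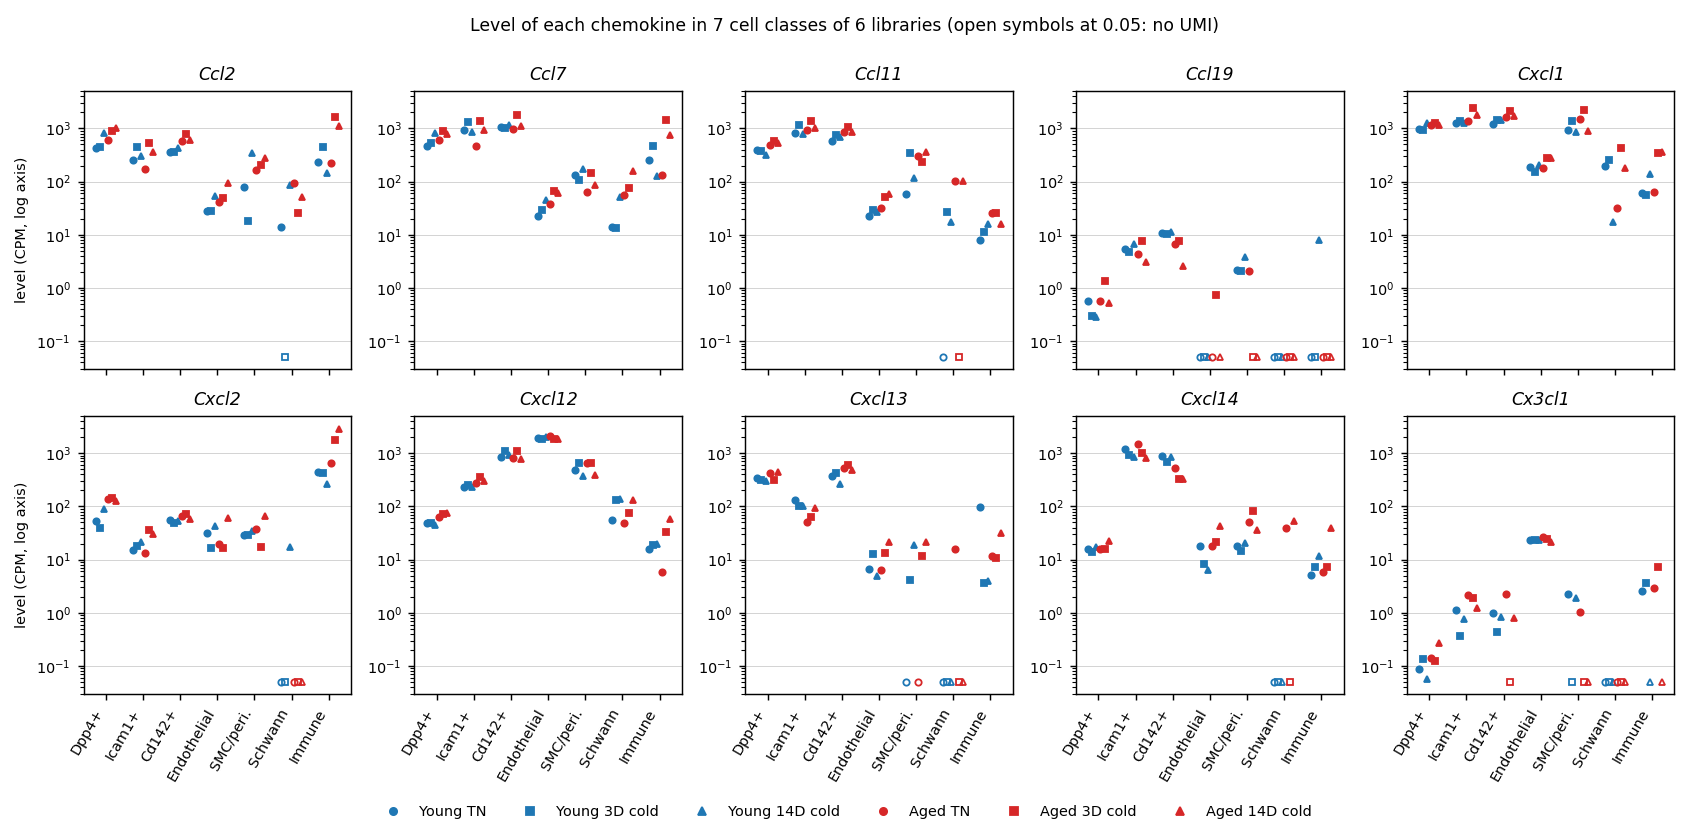
Level of each of the 10 chemokines (CPM, log axis) in 7 cell classes, with 1 point per library, coloured by age and shaped by temperature; open symbols at 0.05 mark libraries with 0 UMIs. Cxcl12 and Cx3cl1 peak in endothelial cells, Cxcl2 in immune cells, and Cxcl14 lies higher in Icam1+ preadipocytes and Cd142+ fibroblasts than in the other 5 classes.

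A test of the level in Icam1+ preadipocytes against Dpp4+ fibroblasts, with the library as a block, called all 10 chemokines (edgeR quasi-likelihood test, Benjamini-Hochberg adjusted p under 0.05), where 68.8% of all 13847 genes tested were called. Higher in Icam1+ preadipocytes were Cxcl14 (log2 difference 6.00 ± 0.26 (SE), adjusted p = 4.48e-12), Ccl19 (3.30), Cx3cl1 (3.15), Cxcl12 (2.26), Ccl11 (1.24), Ccl7 (0.56) and Cxcl1 (0.53). Higher in Dpp4+ fibroblasts were Cxcl2 (-2.03), Cxcl13 (-1.92) and Ccl2 (-0.97). Most genes differed between these classes, so the count of 10 of 10 is to be read against that share.

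The share of cells that carried a UMI was compared after each cell was thinned to 2000 UMIs, which left out shallower cells (19472 of 20051 Dpp4+, 17076 of 17718 Icam1+, 4999 of 5500 Cd142+ and 3762 of 4095 endothelial cells remained). Ccl11 was carried by a median of 78.8% of Icam1+ preadipocytes over the 6 libraries, 64.5% of Cd142+ and 52.9% of Dpp4+ fibroblasts. The share in endothelial cells was 4.09%, and the part of free RNA in it was not tested. Cxcl1 was carried by 65.5% of Icam1+ preadipocytes, 67.8% of Cd142+ and 59.8% of Dpp4+ fibroblasts, and by 19.9% of endothelial cells. Without thinning, the range of Ccl11 over libraries was 84.9% to 98.7% in Icam1+ preadipocytes and 4.75% to 11.7% in endothelial cells. Cxcl14 was carried by 58.3% of Icam1+ preadipocytes, 38.7% of Cd142+ fibroblasts and 1.75% of Dpp4+ fibroblasts, the last close to the 1.54% of endothelial cells. In endothelial cells Cxcl12 was carried by 78.2% and Cx3cl1 by 4.39% of cells, and Cx3cl1 by 0.0251% of Dpp4+ fibroblasts.

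Cxcl2 and Ccl19 came from few cells. A median of 7.38% of Dpp4+ fibroblasts carried Cxcl2 at 2000 UMIs, and the 5% of cells with the most Cxcl2 held 77.8% to 94.0% of its UMIs, whereas the 5% of Icam1+ preadipocytes with the most Ccl11 held 16.2% to 22.5% of that gene's UMIs. Ccl19 was carried by 1.53% of Cd142+ fibroblasts and 1.01% of Icam1+ preadipocytes. Taken over the 3 fibroblast classes, 92.5% to 97.0% of cells per library carried at least 1 of the 10 chemokines at this depth, and 22.6% to 40.8% carried 4 or more.

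**Figure D2:**
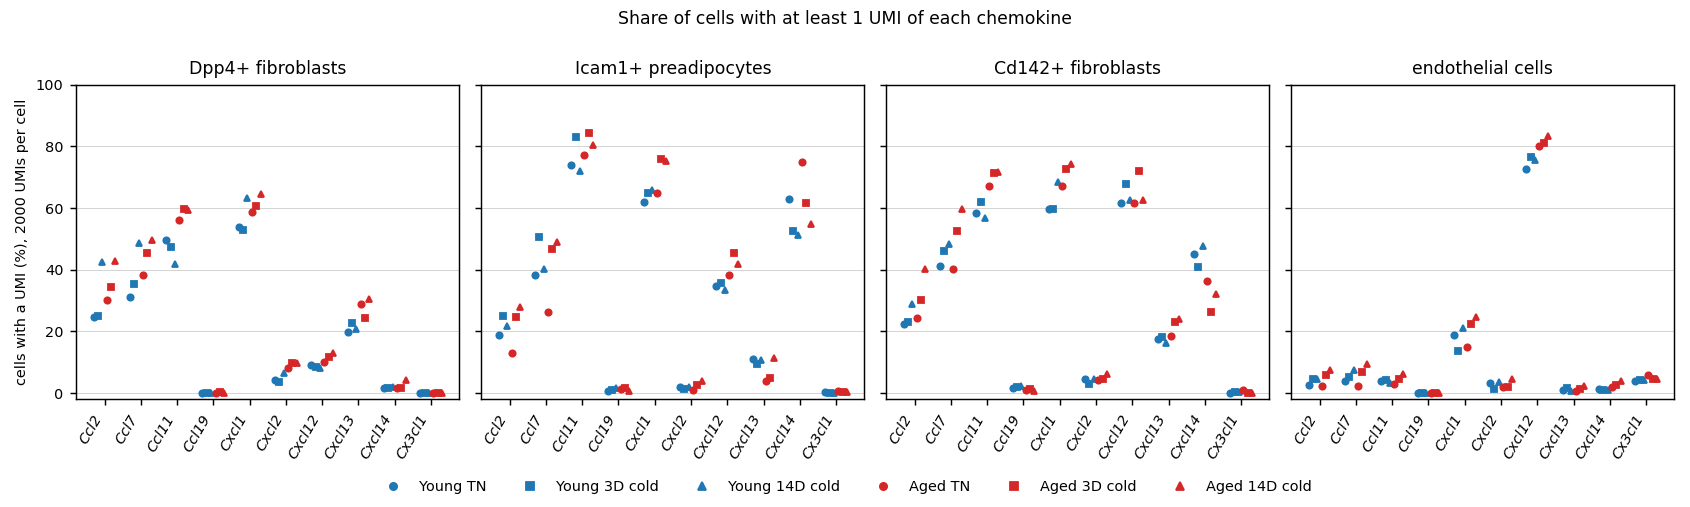
Share of cells (%) with at least 1 UMI of each chemokine after thinning to 2000 UMIs per cell, in the 3 fibroblast classes and endothelial cells, with 1 point per library. Cxcl1 is carried by most cells of every fibroblast class, and Ccl11 by most Icam1+ preadipocytes and Cd142+ fibroblasts. In Dpp4+ fibroblasts Ccl11 is carried by 42.0% to 59.7% of cells, with a mean of 46.3% in young and 58.4% in aged libraries. Cxcl14 is carried by 51.1% to 74.9% of Icam1+ preadipocytes and 26.2% to 47.7% of Cd142+ fibroblasts. Cxcl2, Ccl19 and Cx3cl1 are carried by under 10% of cells in each of these classes.

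In several pairs of chemokines the second gene was carried more often by cells with the first, for neighbours and genes of different chromosomes alike. Ccl7 was carried by a median of 62.8% of cells with and 31.0% of cells without Ccl2 in Dpp4+ fibroblasts, and the share was higher with Ccl2 in 6 of 6 libraries and in each fibroblast class. Cxcl2 was carried by 10.2% of cells with and 2.91% of cells without Cxcl1 in Dpp4+ fibroblasts, again in 6 of 6 libraries. Across chromosomes, Cxcl1 was carried by 75.8% of cells with and 51.3% of cells without Ccl2, and Cxcl2 by 12.2% of cells with and 4.57% of cells without Ccl2, each higher with Ccl2 in 6 of 6 libraries and in each fibroblast class. For the neighbours Ccl7 and Ccl11 the shares lay closer, with Ccl11 carried by 56.1% of cells with and 51.3% of cells without Ccl7. In Icam1+ preadipocytes the pair Cxcl12 and Cxcl14 ran the other way: Cxcl14 was carried by 54.9% of cells with and 60.5% of cells without Cxcl12, with the higher share in cells without it in 6 of 6 libraries. In Cd142+ fibroblasts the same pair ran together, at 42.3% of cells with and 31.6% of cells without Cxcl12. Depth per cell was equal in these comparisons, the pairs were chosen after the data were seen, and they are descriptions without a test.

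In Dpp4+ fibroblasts the chemokines that differed by age were higher in aged mice. With temperature as a term, 4 of the 9 chemokines tested there were called, all higher in aged libraries, where 16.4% of 13255 genes were called. Cxcl2 had 53.7, 39.2 and 88.8 CPM in young and 140.0, 142 and 129 in aged libraries, so every aged library lay above every young one, a 2.38-fold rise (log2 fold change 1.25 ± 0.19 (SE), adjusted p = 0.00156). Ccl11 rose 1.50-fold (0.59 ± 0.08 (SE), adjusted p = 0.000697), and its mean was 358 ± 33.2 CPM (SD, n = 3) in young and 536 ± 38.0 CPM (n = 3) in aged libraries without overlap. Cxcl12, a ligand that binds Cxcr4, rose from a low level, at 49.7, 49.6 and 45.0 CPM in young and 64.3, 72.7 and 75.7 in aged libraries (0.56 ± 0.07 (SE), adjusted p = 0.000741). Ccl2 rose 1.50-fold (0.58 ± 0.11 (SE), adjusted p = 0.00723), with the aged library higher at each temperature but with ranges that overlapped, since Young 14D reached 831 CPM.

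The other chemokines of Dpp4+ fibroblasts did not pass the threshold. The log2 fold changes were 0.35 for Ccl7 (adjusted p = 0.0833), 0.25 for Cxcl13 (0.0967), 0.20 for Cxcl1 (0.201) and 0.18 for Cxcl14 (0.207). Ccl19 was near the limit of detection (adjusted p = 0.117), and Cx3cl1 was too low to be tested. Within the cluster that held most Dpp4+ fibroblasts (cluster 0) Cxcl2 had 48.3, 37.6 and 81.1 CPM in young and 112, 149 and 158 in aged libraries, unscaled, so the order by age was the same. With DESeq2 Ccl2 was no longer called (0.58, adjusted p = 0.0606), and neither was it in a fit without temperature (0.55, adjusted p = 0.304).

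Icam1+ preadipocytes showed changes in both directions. Of 10 chemokines 4 were called for age, 3 higher and 1 lower in aged libraries, where 12.7% of 13315 genes were called. Cxcl13, the B cell attractant, was lower, at 129, 102 and 104 CPM in young and 50.9, 62.9 and 93.8 in aged libraries, with no overlap (1.66-fold lower, log2 fold change -0.73 ± 0.18 (SE), adjusted p = 0.0351). The summed Dpp4+ markers in these same sums were 325, 283 and 429 CPM in young and 177, 240.0 and 501 in aged libraries, lowest in Aged TN as for Cxcl13, and their part in the result was not tested. Within cluster 1, Cxcl13 had 56.0, 50.0 and 63.1 CPM in young and 13.1, 10.3 and 20.3 in aged libraries (unscaled). Within cluster 2 it had 307, 212 and 226 CPM in young and 37.1, 101 and 209 in aged libraries. The aged libraries were below the young in both, but Aged 14D only just in cluster 2. Aged TN had 3.18% of its Icam1+ preadipocytes in cluster 1 and 90.9% in cluster 2. Its Cxcl14 in cluster 2 was 1545 CPM against 332 to 568 CPM in the other libraries, so cells of that cluster were not alike over libraries.

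Cxcl12 rose 1.28-fold in Icam1+ preadipocytes, at 236, 249.7 and 229 CPM in young and 271, 356 and 294 in aged libraries (0.36 ± 0.07 (SE), adjusted p = 0.0177), with no overlap between ages. Cxcl1 rose 1.38-fold (0.46 ± 0.12 (SE), adjusted p = 0.041), from 1266, 1399 and 1258 CPM in young and 1381, 2389 and 1765 in aged libraries, and here Aged TN lay inside the young range. Cx3cl1 rose 2.49-fold (1.32 ± 0.35 (SE), adjusted p = 0.0419) at the edge of detection, from 11 to 28 UMIs per young and 17 to 60 UMIs per aged library. Not called were Ccl11 (0.26, adjusted p = 0.072), Cxcl2 (0.45), Cxcl14 (0.14), Ccl2 (0.00), Ccl19 (-0.12) and Ccl7 (-0.25). None of the 4 calls held without the Aged 3D library (Cxcl1 0.30, Cxcl12 0.28, Cx3cl1 0.85, Cxcl13 -0.75) or without Young 3D, none held with age alone, and DESeq2 called 1 of the 4. The fall of Cxcl13 was also lost when cells were thinned (-0.74) and at a score lead of 0 (-0.53). Cxcl1 was also lost without either 14D library and Cx3cl1 without either TN library (with values of 0.45 and 1.56).

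In Cd142+ fibroblasts 6 of 9 chemokines were called for age, 4 higher and 2 lower in aged libraries, where 12.2% of 11484 genes were called. Cxcl14 fell from 799 ± 112 CPM (SD, n = 3) in young to 395 ± 122 CPM (n = 3) in aged libraries. The values by library were 871, 669.7 and 857 CPM in young and 536, 330.1 and 320.4 in aged libraries, without overlap and lower at each temperature (2.06-fold lower, log2 fold change -1.04 ± 0.11 (SE), adjusted p = 0.000155). The summed Icam1+ markers of the same Cd142+ sums were also lower in aged libraries, at 4469, 4225 and 4372 CPM in young and 3766, 2645 and 4006 in aged libraries, and their part in the fall was not tested. Among the Cd142+ fibroblasts of cluster 5, the Cd142+ cluster, Cxcl14 had 1054, 761 and 964 CPM in young and 519, 359.6 and 297 in aged libraries (unscaled), the same order by age. Ccl19, a ligand of Ccr7, had 10.8, 10.5 and 11.4 CPM in young and 6.60, 7.46 and 2.55 in aged libraries, 1.98-fold lower (-0.98 ± 0.26 (SE), adjusted p = 0.03). Its call was lost in 7 of 11 alternatives other than leaving out a library, and without Aged 14D (-0.60) or Young 14D (-0.59). The 7 were DESeq2 (-1.06), cells taken by cluster (-0.44), score leads of 0 and 0.5 (-0.91 and -0.79), at most 1 marker of another lineage (-0.64), thinning (-1.11) and age alone (-0.96).

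The 4 that rose in Cd142+ fibroblasts were Ccl2, Cxcl13, Ccl11 and Cxcl1. Ccl2 had 355, 361 and 434 CPM in young and 575, 767 and 597 in aged libraries, without overlap, a 1.68-fold rise (0.75 ± 0.11 (SE), adjusted p = 0.000843). Cxcl13 had 373, 432 and 259.8 CPM in young and 520.5, 590.4 and 473 in aged libraries, a 1.51-fold rise without overlap (0.60 ± 0.09 (SE), adjusted p = 0.00142), opposite in sign to its change in Icam1+ preadipocytes. Ccl11 rose 1.39-fold (0.47 ± 0.08 (SE), adjusted p = 0.00325) and Cxcl1 1.34-fold (0.42 ± 0.09 (SE), adjusted p = 0.00902), each with all aged above all young libraries. Cxcl2 (0.30, adjusted p = 0.0672), Ccl7 (0.20) and Cxcl12 (-0.08) did not pass the threshold. Each fit without 1 library called 6 chemokines, with Ccl19 not among them without either 14D library. The libraries differed in depth, with a median of 9145, 7414.5 and 6974 UMIs per Cd142+ fibroblast in young and 6020, 6066 and 2467 in aged libraries.

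**Figure D3:**
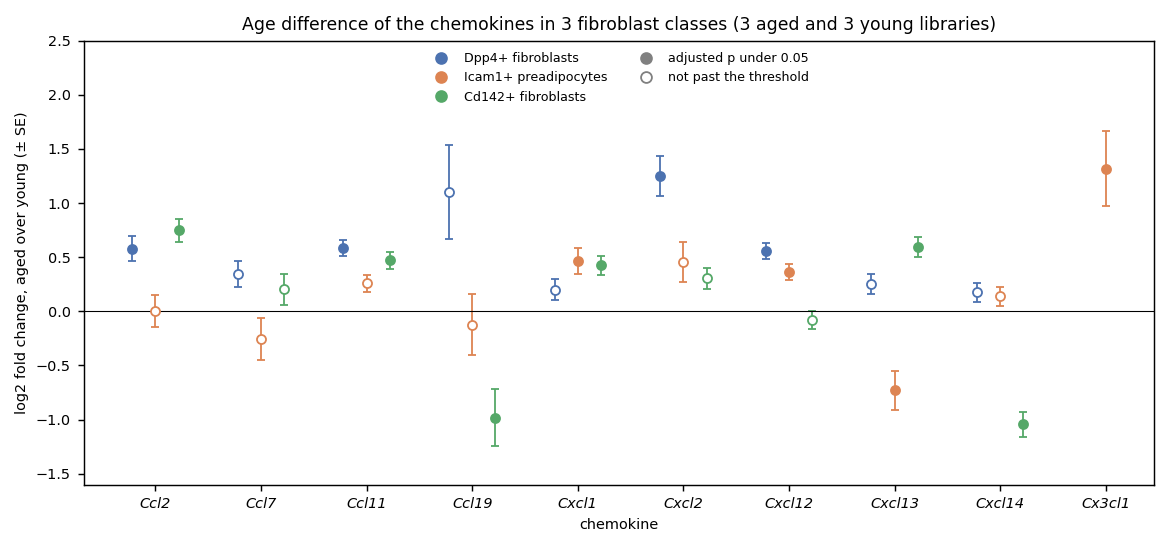
Log2 fold change of aged over young libraries (± SE, edgeR fit with temperature as a term) for each chemokine in the 3 fibroblast classes; filled points passed an adjusted p of 0.05 and a gene too low in a class has no point. Ccl11 lies above 0 in all 3 classes, while Cxcl13 and Cxcl14 lie on opposite sides of 0 in Icam1+ preadipocytes and Cd142+ fibroblasts.

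Whether the change with age differed between fibroblast classes was tested in a fit of 18 sums with the library as a block, over 14208 genes. Between Cd142+ fibroblasts and Icam1+ preadipocytes, where 0.774% of genes were called, Cxcl13 had a log2 difference of 1.32 ± 0.25 (SE), adjusted p = 0.0207, and Cxcl14 of -1.18 ± 0.23 (SE), adjusted p = 0.0225. Between Icam1+ preadipocytes and Dpp4+ fibroblasts (3.05% called) Cxcl13 differed by -0.97 ± 0.25 (SE), adjusted p = 0.0437. Between Cd142+ and Dpp4+ fibroblasts (0.521% called) Cxcl14 differed by -1.25 ± 0.25 (SE), adjusted p = 0.0366, Cxcl12 by -0.63 ± 0.13 (SE), adjusted p = 0.0369, and Ccl19 by -2.08 ± 0.39 (SE), adjusted p = 0.0216. The age change of Cxcl14 was thus lower in Cd142+ fibroblasts than in either other class, where it was not called (0.14 and 0.18), and the age change of Cxcl13 was lower in Icam1+ preadipocytes than in either other class. Each of the 6 differences lost its call in 3 to 5 of the 6 fits without 1 library, at values of 1.15 to 1.63 and -1.27 to -1.01 for the first pair, -1.14 to -0.72 for the second, and -1.54 to -0.92, -0.78 to -0.47 and -2.48 to -1.81 for the third. In the order given, the calls were lost without Young TN, Young 14D or Aged 3D for Cxcl13, without any young library or Aged 3D for Cxcl14, without any young library or Aged TN for Cxcl13, without any library but Aged TN for Cxcl14, without Young 3D, Young 14D, Aged TN or Aged 14D for Cxcl12, and without any 3D or 14D library for Ccl19. Ccl2, Ccl7, Ccl11, Cxcl1, Cxcl2 and Cx3cl1 were not called in any of the 3 comparisons, which does not show that their changes were alike.

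Cold was compared over the 3 temperatures with age as a term. In Dpp4+ fibroblasts 1 of 9 chemokines was called, where 6.46% of genes were called. This was Ccl2, with log2 fold changes over TN of 0.31 ± 0.14 (SE) at 3D and 0.85 ± 0.14 at 14D, adjusted p = 0.0169. It climbed at both ages, but the young rise came at 14D (446 to 831 CPM between 3D and 14D) and the aged rise largely at 3D (603 to 884 CPM between TN and 3D), a difference in timing that 1 library per point cannot test. Ccl7 of the same cells had 458, 530.5 and 828 CPM in young and 599.7, 879 and 787 in aged libraries and did not pass the threshold (adjusted p = 0.0652). With DESeq2 Ccl2 was not called here (adjusted p = 0.0533).

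In Icam1+ preadipocytes 3 of 10 chemokines were called for temperature, where 4.57% of genes were called. Ccl2 peaked at 3D at both ages, at 250.1, 442 and 299 CPM in young and 172, 528 and 361 in aged libraries, with log2 fold changes of 1.20 ± 0.18 (SE) at 3D and 0.64 ± 0.18 at 14D, adjusted p = 0.0225. Ccl11 also peaked at 3D, with a 14D value near TN (0.53 ± 0.10 (SE) at 3D and 0.05 ± 0.10 at 14D, adjusted p = 0.0305), at 1174 CPM in Young 3D and 1351 CPM in Aged 3D, the highest library of each age. Cxcl14 fell along the cold course at both ages, at 1208, 923 and 831 CPM in young and 1487, 1012 and 821 in aged libraries (-0.47 ± 0.10 (SE) at 3D and -0.70 ± 0.10 at 14D, adjusted p = 0.0192). Ccl7 had 929, 1329 and 858 CPM in young and 472, 1395 and 942 in aged libraries, also with the 3D library highest at each age, but was not called (adjusted p = 0.0844). The Ccl11 call was lost without Young 3D or Aged 3D (3D values of 0.49 and 0.57), the Ccl2 call without Aged 3D (1.00) and with DESeq2, and the Cxcl14 call without Aged TN (14D value -0.58), the library whose cells clustered apart. Within cluster 1 Cxcl14 had 1467, 1123 and 999 CPM in young and 1819, 1201 and 1075 in aged libraries (unscaled), the same order along the cold course. That cluster held only 3.18% of the Icam1+ preadipocytes of Aged TN.

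In Cd142+ fibroblasts edgeR called 0 of 9 chemokines for temperature, where 2.49% of genes were called, with 5 at an unadjusted p under 0.05 and 2 called by DESeq2. Those with the smallest adjusted p were Cxcl13 (0.20 ± 0.11 (SE) at 3D and -0.32 ± 0.11 at 14D, adjusted p = 0.0685) and Cxcl12 (0.42 ± 0.10 (SE) at 3D and 0.01 ± 0.10 at 14D, adjusted p = 0.0695). For Cxcl12 the 3D library was highest at each age, at 1088 CPM in Young 3D and 1117 CPM in Aged 3D. Ccl11 also had its highest value of each age at 3D, as in Icam1+ preadipocytes, without passing the threshold (adjusted p = 0.201).

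**Figure D4:**
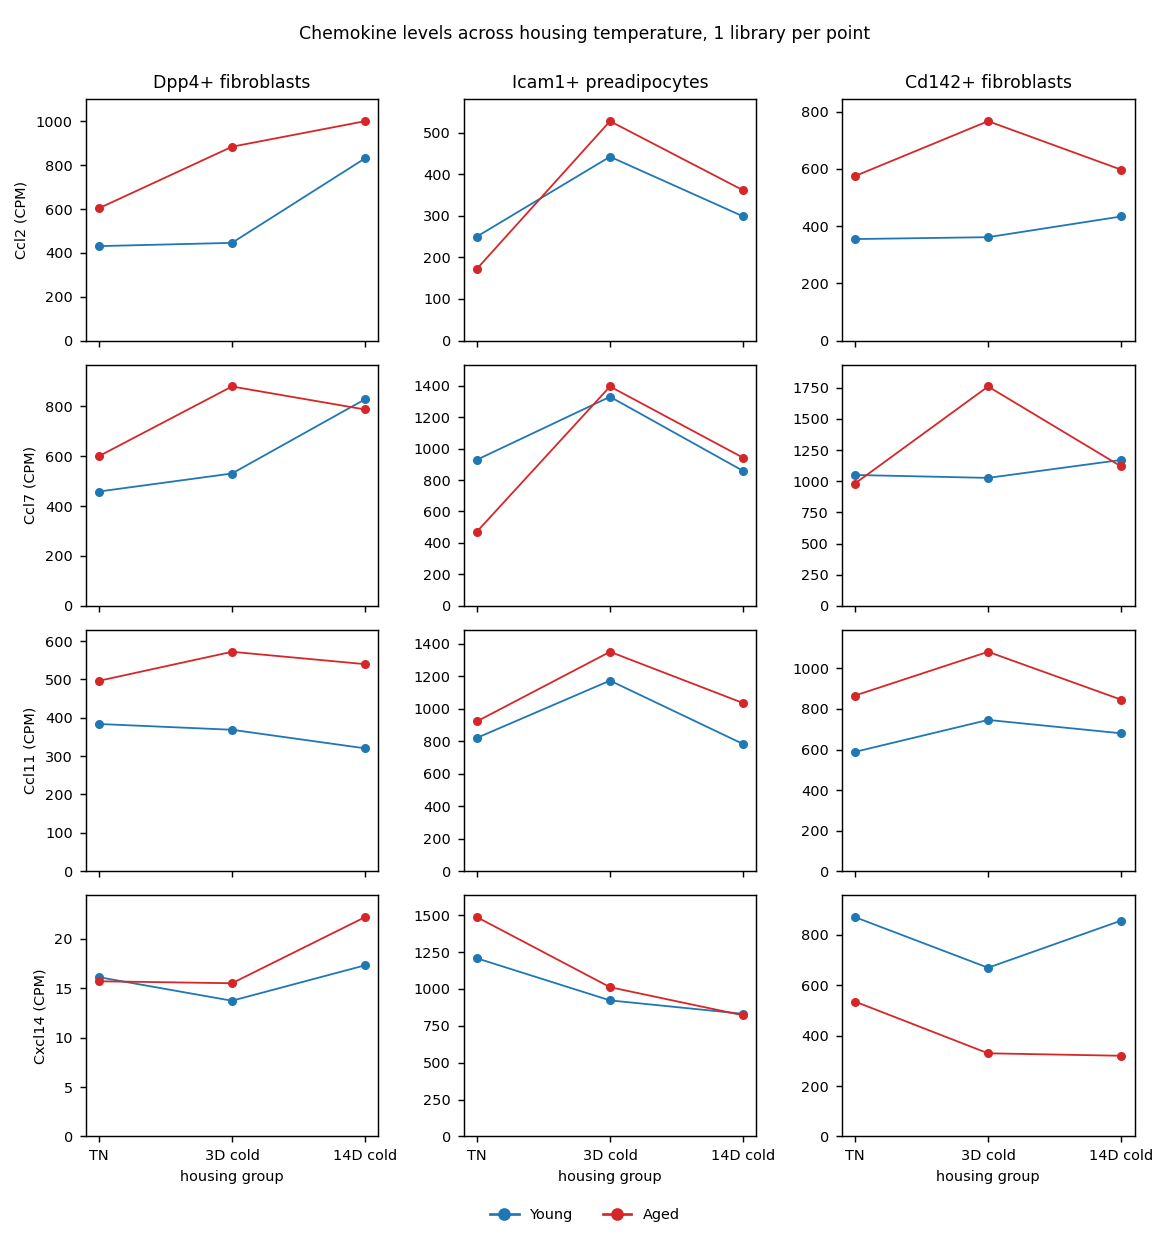
Level (CPM, axes from 0) of Ccl2, Ccl7, Ccl11 and Cxcl14 in the 3 fibroblast classes at TN, 3D and 14D, with 1 library per point and a line per age. In Icam1+ preadipocytes Ccl2, Ccl7 and Ccl11 are highest at 3D at both ages and Cxcl14 declines, while in Cd142+ fibroblasts aged Cxcl14 lies below young Cxcl14 throughout.

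In endothelial cells the 2 ligands that marked the class were not called for age. Cxcl12 had a log2 fold change with age of -0.00 ± 0.07 (SE), adjusted p = 0.993, and Cx3cl1 of 0.04 ± 0.16 (SE), adjusted p = 0.949, and neither was called for temperature. Cxcl12 and Cx3cl1 varied by vessel type. By counts of arterial, venular and lymphatic markers, 1365 arterial cells had a median over libraries of 2173 CPM of Cxcl12 and 38.9 CPM (36.3 to 43.0) of Cx3cl1, 274 venular cells 1819.9 and 24.9 CPM, and 2403 cells of neither type 1873 and 15.3 CPM (8.68 to 16.1). In 53 lymphatic cells Cxcl12 had 9 UMIs in all, and Cx3cl1 had 0, which allows up to 3. The arterial range of Cx3cl1 lay above that of the other cells in every library, and the Cxcl12 ranges of the 3 blood vessel groups overlapped.

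In endothelial cells 3 of 9 chemokines were called for age, where 2.28% of 10706 genes were called: Ccl2 (log2 fold change 0.72 ± 0.12 (SE), adjusted p = 0.00782), Ccl7 (0.77 ± 0.15 (SE), adjusted p = 0.0161) and Ccl11 (0.82 ± 0.15 (SE), adjusted p = 0.0103). All 3 were low there. Ccl2 had 28.0, 28.2 and 52.8 CPM in young and 40.4, 49.2 and 92.3 in aged libraries, a median of 8.63% of the level in fibroblasts of the same library, and the medians were 5.16% for Ccl7 and 4.54% for Ccl11. Fibroblast genes taken for comparison stood at 3.73% for Col1a1, 4.07% for Clec3b, 5.02% for Mfap5, 5.08% for Pi16 and 5.93% for Dpp4. Others stood higher, at 6.66% for Clec11a, 10.5% for Gdf10 and 32.5% for Col15a1. The 8 fibroblast markers summed to 777, 475 and 691 CPM in young and 829.9, 1085 and 1389 in aged libraries in the endothelial sums, with every aged library above every young one. The part of fibroblast RNA in these changes was not tested. None of the 3 was called among endothelial cells with at most 1 marker of another lineage, without predicted doublets, after thinning, or with DESeq2, and among clusters the values were -0.12, 0.01 and 0.21. With endothelial cells taken by cluster, 0 of 10 chemokines were called higher and 2 lower in aged libraries, Ccl19 (-2.47) and Cxcl13 (-1.34). Ccl2 and Ccl11 were lost without either 14D library (with values of 0.66 and 0.69 without Aged 14D), and Ccl7 without either 3D library (0.56 without Aged 3D).

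For temperature, 2 of 9 were called in endothelial cells, where 1.7% of genes were called. Cxcl2 had 31.1, 16.2 and 42.0 CPM in young and 19.3, 16.4 and 59.2 in aged libraries, low at 3D and high at 14D (-0.56 ± 0.27 (SE) at 3D and 1.04 ± 0.23 at 14D, adjusted p = 0.0108). Ccl2 rose at 14D (0.18 ± 0.15 (SE) at 3D and 1.08 ± 0.14 at 14D, adjusted p = 0.00269). Both calls were lost without Aged 14D (14D values of 0.58 and 1.00), the shallow library, among clusters, without predicted doublets, and with temperature alone. Ccl2 was also lost among cells with at most 1 marker of another lineage.

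SMCs/pericytes, the cells around vessels, numbered 91 to 278 per library, and 7 chemokines could be tested. Cxcl14 was called for age, where 0.778% of 6685 genes were called, at 17.6, 14.4 and 20.8 CPM in young and 51.5, 81.2 and 35.9 in aged libraries (1.61 ± 0.34 (SE), adjusted p = 0.0281). Its level was a median of 5.20% of that in fibroblasts. The fibroblast genes taken for comparison stood at 5.29% for Gdf10, 5.42% for Clec3b, 5.80% for Col15a1 and 5.97% for Pi16. Others stood higher, at 7.27% for Dpp4, 8.30% for Mfap5, 11.3% for Col1a1 and 59.5% for Clec11a. The 8 fibroblast markers summed to 1079, 1086 and 1573 CPM in young and 395, 1117 and 2768 in aged libraries. Among cells taken by cluster the value of Cxcl14 was -0.11, and the call was lost without any TN or 3D library (1.18 to 2.01 over the fits without 1 library). Its rise was also not called among cells with at most 1 marker of another lineage. There 0 chemokines were called higher and 1 lower in aged libraries. Cxcl1, at a level like that of fibroblasts, was called for temperature (0.58 ± 0.17 (SE) at 3D and -0.43 ± 0.18 at 14D, adjusted p = 0.00675), where 1.51% of genes were called, with 941, 1367 and 857 CPM in young and 1476, 2259 and 884 in aged libraries. The highest library of each age was at 3D. That call was lost without Aged 3D (14D value -0.44). Ccl2 was also called for temperature (edgeR adjusted p = 0.0309), at 79.4, 18.5 and 340.4 CPM in young and 166, 203 and 278 in aged libraries, the highest library of each age being 14D. It was lost without Young TN or Young 14D (14D values of 1.36 and 0.48). Both temperature calls were also lost when cells were thinned, among clusters, without predicted doublets, with DESeq2 and with temperature alone.

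Immune cells numbered 35 to 56 per library and were not tested for age. Ccl2 had 229, 442 and 147 CPM in young and 221, 1614 and 1094 in aged libraries, Ccl7 255, 460.2 and 127 CPM in young and 132, 1455 and 745 in aged libraries, and Cxcl2 446, 416 and 265 CPM in young and 667, 1779.7 and 2854 in aged libraries, in CPM not scaled between libraries. All 3 were highest in Aged 3D or Aged 14D. In 93 cells with at least 3 macrophage markers Cxcl2 had a median of 1959.9 CPM, Ccl2 of 738 CPM and Ccl7 of 651 CPM, and in the 164 other immune cells 10.2, 124 and 106 CPM. The macrophage markers of the immune sums were 4233, 5220.1 and 2524 CPM in young and 2358, 9879 and 10388 in aged libraries, also highest in Aged 3D and Aged 14D, and their part in the differences between libraries was not tested. In the 3 fibroblast classes the same markers summed to 11.8 to 31.9 CPM.

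**Figure D5:**
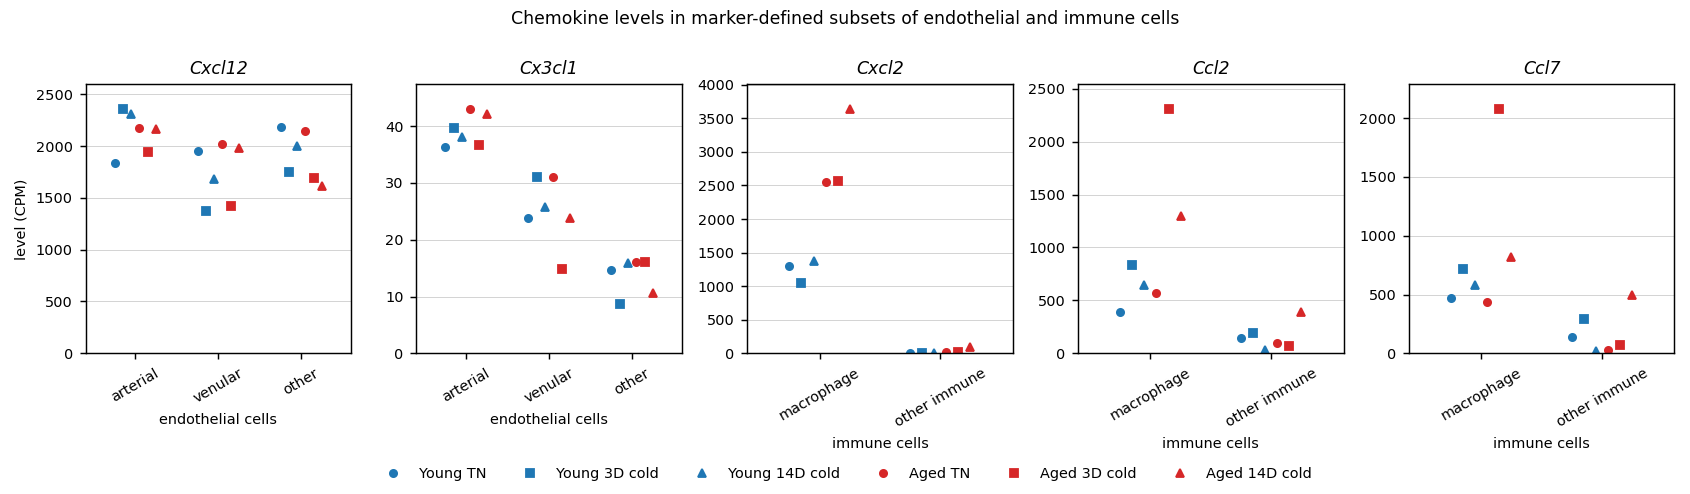
Level (CPM, unscaled, axes from 0) of Cxcl12 and Cx3cl1 in arterial, venular and other endothelial cells, and of Cxcl2, Ccl2 and Ccl7 in immune cells with and without macrophage markers, with 1 point per library. Cx3cl1 is highest in arterial cells and Cxcl2 stays at or below 88.4 CPM in immune cells without macrophage markers.

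Counts of the gene lists that follow are to be read beside all genes tested, of which 8.05% rose and 8.36% fell with age in Dpp4+ fibroblasts, 7.07% and 5.64% in Icam1+ preadipocytes, 6.08% and 6.12% in Cd142+ fibroblasts, 1.11% and 1.17% in endothelial cells, and 0.553% and 0.224% in SMCs/pericytes. The receptors were read from a list of 15 receptors and scavengers. Ackr3, a scavenger of CXCL12, was itself a stromal gene, with a median over libraries of 1584 CPM in the Dpp4+ class, 395 CPM in the Icam1+ class and 456 CPM in the Cd142+ class, while Cxcr4, the signalling receptor, had 14.3 CPM in endothelial and 133 CPM in immune cells. With age Ackr3 rose in Cd142+ fibroblasts (0.40 ± 0.09 (SE), adjusted p = 0.0124). Ackr1, a scavenger of inflammatory chemokines, fell in Dpp4+ (-0.45 ± 0.07 (SE), adjusted p = 0.00299) and Cd142+ fibroblasts (-0.36 ± 0.08 (SE), adjusted p = 0.0168), Ackr2 rose in Icam1+ preadipocytes (1.52 ± 0.12 (SE), adjusted p = 0.000224) and Ackr4, a scavenger of CCL19, rose in Dpp4+ fibroblasts (0.61 ± 0.16 (SE), adjusted p = 0.0249). In all, 1 rose and 1 fell of 6 tested in Dpp4+ fibroblasts, 1 and 0 of 6 in Icam1+ preadipocytes, 1 and 1 of 4 in Cd142+ fibroblasts, 0 and 1 of 4 in endothelial cells, and 0 and 0 of 1 in SMCs/pericytes. In endothelial cells Ackr4 had 107 UMIs in young (21.7, 13.7 and 7.12 CPM in young and 0, 0 and 0 in aged libraries) and 0 in aged libraries (edgeR adjusted p = 9.88e-05). Set against a floor of 3 UMIs over the 3 aged libraries, the young level was 45.6-fold higher, a ratio without the error of the young count. The part of vessel types in this change was not tested.

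Of 26 other chemokine ligands, 9 could be tested in Dpp4+ fibroblasts, where Ccl5 (1.75), Ccl8 (0.70) and Cxcl9 (0.49) rose and Cxcl10 (-0.45) fell with age. Ccl5 was near the limit of detection there, at 0.11 to 1.41 CPM from 90 UMIs in all. Its median was 3160 CPM in immune cells, and the part of free RNA in its rise was not tested. In Icam1+ preadipocytes none of 9 rose and 3 fell, Cxcl9 at 110.0, 157 and 136 CPM in young and 30.5, 92.1 and 102 in aged libraries (edgeR adjusted p = 0.0234), Cxcl10 at 285, 284 and 358 CPM in young and 103, 194 and 224 in aged libraries (-0.90 ± 0.16 (SE), adjusted p = 0.00895) and Ccl27a (-0.42). Cxcl9 and Cxcl10 are interferon-induced ligands of Cxcr3, a receptor of T cells. In Cd142+ fibroblasts Ccl8 rose (0.63) and Cxcl16 fell (-0.93) of 10 tested, in endothelial cells Ccl21a, a lymphatic ligand of Ccr7, rose (1.11) of 10, and in SMCs/pericytes 0 of 2 were called. Ccl21a ran from 0 to 59.0 CPM over the endothelial sums, which held 5 to 15 lymphatic cells per library, and the part of their number was not tested.

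Of the genes of NF-kB and its cytokine inputs, 5 of 14 rose and 0 fell in Dpp4+ fibroblasts, among them Tnfaip3 (0.75 ± 0.15 (SE), adjusted p = 0.00919), a target and brake of NF-kB, Nfkb1 (0.38 ± 0.06 (SE), adjusted p = 0.0023), a subunit, and Il1r1 (0.34 ± 0.08 (SE), adjusted p = 0.0175), the interleukin-1 receptor. Nfkb1 also rose in Icam1+ preadipocytes (0.32 ± 0.08 (SE), adjusted p = 0.0441) and in Cd142+ fibroblasts (0.65 ± 0.07 (SE), adjusted p = 0.000204), the 1 called gene of 14 in each, and Il6 rose in endothelial cells (1.23 ± 0.16 (SE), adjusted p = 0.0014), while 0 of 12 were called in SMCs/pericytes. The median log2 fold change of the list was 0.16 in Dpp4+ fibroblasts. Of the proteases that trim or shed chemokines, Mmp14 rose and Mmp2 and Adam17 fell in Dpp4+ (0.29, -0.50 and -0.34) and Cd142+ fibroblasts (0.42, -0.30 and -0.36), with 0 called in the other classes.

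Immediate early genes, which dissociation is known to induce along with Cxcl1, Cxcl2 and Ccl2, overlapped between ages in the tested classes when summed over 13 genes, at 22403, 24229 and 20916 CPM in young and 26242, 23419.5 and 19059 in aged libraries in Dpp4+ fibroblasts and 30794, 29902 and 30478 CPM in young and 37616, 32064 and 26755 in aged libraries in Icam1+ preadipocytes. In immune and Schwann cells, which were not tested, every aged library lay above every young one. The sums were 7544 to 8364 CPM in young and 8996 to 12937 in aged immune cells. In Schwann cells they were 30399 to 31079 CPM in young and 32400 to 37513 in aged libraries. Of the 13, 3 rose and 1 fell in Dpp4+ fibroblasts, while each of the Icam1+, Cd142+ and SMC/pericyte classes had 3 that rose and 0 that fell. In endothelial cells 0 of 13 were called. Their part in the chemokine changes was not tested. Of the macrophage markers, 0 of 4 tested were called in Dpp4+ fibroblasts, Cd68 rose of 3 in Icam1+ preadipocytes, C1qb rose of 4 in Cd142+ fibroblasts and Mrc1 fell of 4 in endothelial cells, with none tested in SMCs/pericytes. Of the adipocyte genes, 3 of 5 rose in Dpp4+ fibroblasts, 2 of 5 in Icam1+ preadipocytes, 0 of 2 in Cd142+ fibroblasts, 1 of 5 in endothelial cells and 0 of 2 in SMCs/pericytes, and none fell.

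The genes whose level over the 42 sums of 7 classes and 6 libraries was most like each chemokine were found among 11232 genes. For the monocyte attractant Ccl2 they were Nfkb1 (rho = 0.903) and Wnt11 (rho = 0.874), for Ccl7 Ifi207 (rho = 0.928) and Cyp27a1 (rho = 0.908), and for Ccl11 Lox (rho = 0.952) and Gstt1 (rho = 0.926). For Cxcl1 they were Gstt1 (rho = 0.910) and Il1r1 (rho = 0.880), for Cxcl2 Rps16 (rho = 0.879) and Rpl23 (rho = 0.879), and for Cxcl12 Meox2 (rho = 0.895) and Ifitm3 (rho = 0.885). For Cxcl13 they were C3 (rho = 0.923) and St3gal1 (rho = 0.922), for Cxcl14 Mdk (rho = 0.836) and Tfpi2 (rho = 0.825), and for Cx3cl1 Jak3 (rho = 0.824) and Arhgef5 (rho = 0.812). Ccl19 did not reach a mean of 10 CPM in any class and was not searched. The sums share libraries and classes differ in depth, so these values describe likeness over the classes.

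Partner genes were read beside 2 chemokines, and were chosen after the data were seen. Nrcam with Cxcl13 and Lamc3 with Cxcl14 already named fibroblast subsets of these same data, so these pairs are descriptions and no independent result. Cxcl13 was higher in Dpp4+ fibroblasts with a UMI of Nrcam, a cell adhesion gene, at 368 to 620.4 CPM over libraries, than in those without, at 260.3 to 421 CPM, in 6 of 6 libraries. Cxcl14 was higher in Icam1+ preadipocytes with a UMI of Lamc3, a laminin chain, at 1239.8 to 1910.4 CPM, than without, at 613 to 1204 CPM, again in 6 of 6. With Tfpi2, a protease inhibitor gene, Cxcl14 was lower in 5 of 6 libraries, and with Cyp26b1, which degrades retinoic acid, it was higher in 3 of 6.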

How the data were processed

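The deposited files held UMI counts per gene and barcode, which the authors made with Cell Ranger 3.1.0 on mm10 from 10x 3′ libraries. The study compared cells within clusters with Seurat, whereas here each library counted as 1 sample. Of 68103 barcodes, 57326 were kept (at least 200 genes, with outliers beyond 3 median absolute deviations removed per library). A lineage needed at least 3 of 8 markers and a lead of 2, and a fibroblast class a score lead of 0.25. Doublets predicted by Scrublet (scanpy 1.11.5) were left out as an alternative. UMIs were summed per class and library (library totals 52068837 to 88508349) and tested with edgeR 4.0.16 (R 4.3.3), quasi-likelihood, TMM, terms for age and temperature, filterByExpr, Benjamini-Hochberg over all genes, threshold 0.05. Level and age differences between fibroblast classes were tested with the library as a block. CPM were scaled by TMM for the 5 tested classes and unscaled for Schwann and immune cells. Clusters came from Leiden (resolution 0.5, 15 components, 6000 genes), and the rule for naming them was set after they were seen. The fits were tested on simulated data.

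Genes named were all 10 chemokines, the 2 most similar genes of each, and at most 3 called genes per list and class. The members and lists were chosen with earlier results of these data known. Alternatives were DESeq2 1.42.0, RLE factors, no filter, 1 term alone, thinning, other gates, a fixed cell filter (1000 to 7000 genes, at most 10% mitochondrial), clusters, and each library left out. Intervals and limits covered counting error only.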

Additional observations from a re-analysis of the deposited data

Results flagged for a closer look

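The following 6 differences in the age change between fibroblast classes passed the test of the difference itself (edgeR, library as block, adjusted over all genes). Cxcl13 changed by -0.97 (log2) in Icam1+ preadipocytes relative to Dpp4+ fibroblasts. In Cd142+ fibroblasts relative to Dpp4+ fibroblasts, Ccl19 changed by -2.08, Cxcl12 by -0.63 and Cxcl14 by -1.25. In Cd142+ fibroblasts relative to Icam1+ preadipocytes, Cxcl13 changed by 1.32 and Cxcl14 by -1.18. Each of the 6 lost its call in several fits without 1 library, as given above. Ccl19 also lost its call in 5 other alternatives and rested on 8 to 33 UMIs per library in Dpp4+ fibroblasts.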

How the results depend on the processing

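Of 42 called fold changes, 15 kept their call and direction in every alternative in which they were tested, among them the 10 level differences between Icam1+ preadipocytes and Dpp4+ fibroblasts, of which Cx3cl1 was not tested in the thinned fit. The others were the age changes of Cxcl2, Cxcl12 and Ccl11 in Dpp4+ fibroblasts and of Ccl2 and Cxcl14 in Cd142+ fibroblasts. No paired analysis was possible because each group had 1 library and every replicate number was the same. Ages were matched on temperature by the temperature term, and class differences by the library block. The cause of the differences below was not tested.

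Counts of chemokines called moved as follows, where a difference between classes counts each chemokine once over the 3 class comparisons (4 as reported). The share of all genes called is given only for age in the fits without 1 library. The other counts below therefore cannot be told from a shift over all genes. Without a filter on low counts, age calls were 7 in Dpp4+ fibroblasts, 5 in endothelial cells and 4 in SMCs/pericytes, temperature calls were 5, 6, 4, 5 and 5 in Dpp4+, Icam1+, Cd142+, endothelial cells and SMCs/pericytes, and 7 chemokines differed between classes in their age change. With DESeq2, age calls were 1 in Icam1+ preadipocytes and 0 in endothelial cells and SMCs/pericytes, and temperature calls were 0 in Dpp4+ fibroblasts, 2 in Cd142+ fibroblasts and 0 in SMCs/pericytes. With age or temperature alone, age calls were 0 in Icam1+, endothelial and SMC/pericyte sums and 2 in Cd142+ fibroblasts, and temperature calls were 0 in all 5 classes. With clusters, temperature calls were 2, 2, 5 and 0 in Dpp4+, Cd142+, endothelial and SMC/pericyte sums, and age calls 2 in endothelial cells, both lower, and 0 in SMCs/pericytes. Thinned to 2000 UMIs, temperature calls were 2 in Dpp4+ fibroblasts and 0 in SMCs/pericytes, age calls 0 in endothelial cells and 2 in SMCs/pericytes, and 1 chemokine differed between classes. Without doublets, temperature calls were 2, 1, 0 and 0 in Dpp4+, Cd142+, endothelial and SMC/pericyte sums, age calls 0 in endothelial cells and 2 in SMCs/pericytes, and 2 chemokines differed between classes. At a score lead of 0, age calls were 2 in Icam1+ preadipocytes and temperature calls 1 in Cd142+ fibroblasts, as at a lead of 0.5. The fixed cell filter gave 1 temperature call in Cd142+ fibroblasts and 0 age calls in SMCs/pericytes. Endothelial cells with at most 1 marker of another lineage gave 0 age calls and 1 temperature call. Over the fits without 1 library, age calls ran from 4 to 6 in Dpp4+, 0 to 5 in Icam1+, 6 to 6 in Cd142+, 1 to 6 in endothelial and 0 to 3 in SMC/pericyte sums, temperature calls from 2 to 5, 1 to 7, 1 to 3, 1 to 7 and 1 to 3 in the same order, and chemokines that differed between classes from 0 to 3. The share of all genes called moved over the same fits, from 8.77% to 15.05% for age in Dpp4+, 4.69% to 11.7% in Icam1+, 8.22% to 11.0% in Cd142+, 0.818% to 7.45% in endothelial and 0.211% to 0.991% in SMC/pericyte sums. The share of fibroblasts with any chemokine, 95.8% as the median library, was 88.8% at 1000 UMIs and 99.1% without thinning, a comparison chosen after seeing the data.

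Directions turned as follows, on the log2 scale for age. Ccl2 in Icam1+ preadipocytes (0.00) was -0.0024 with DESeq2, -0.055 at a lead of 0.5, -0.011 without the filter and -0.0094 without doublets, and -0.14 to 0.26 without 1 library. With clusters Ccl2 was -0.12 in endothelial cells, Cxcl14 -0.11 in SMCs/pericytes and Cxcl12 0.15 in Cd142+ fibroblasts. Cxcl12 in endothelial cells (-0.00) was 0.020 with clusters, 0.060 with at most 1 other marker, 0.021 when thinned and 0.0015 without doublets, and -0.084 to 0.055 without 1 library. Without 1 library Ccl7 ran from -0.46 to 0.10 in Icam1+ and -0.083 to 0.36 in Cd142+, Ccl19 from -0.66 to 0.24 in Icam1+ and Cxcl12 from -0.14 to 0.016 in Cd142+. Age and temperature were each read over few libraries, so leaving out a library also removes its temperature from the age comparison.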
